A study of Mus musculus with 12 samples.

Results

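Costimulatory receptors are the surface proteins that add a second signal to the T cell receptor, and 10 of their genes were followed here in activated mouse CD8 T cells. The 10 genes were taken by symbol from the 55450 genes of each deposited table: Tnfrsf9, Tnfrsf4, Tnfrsf18, Tnfrsf1b, Tnfrsf1a, Icos, Cd28, Cd226, Slamf6 and Slamf7. All 10 were found once and all 10 passed the filter on low counts, so none is missing from what follows.

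As background, members of the TNF receptor family recruit TRAF adaptor proteins, which lead to NF-kappaB signalling and, for several members, to survival of activated T cells. Cd28 and its relative Icos bind B7 family ligands on antigen-presenting cells and engage phosphoinositide 3-kinase, and Cd28 shares its ligands with the inhibitory receptor Ctla4. Cd226 binds the adhesion molecules Pvr and Nectin2, for which the inhibitory receptor Tigit competes. Slamf6 and Slamf7 bind copies of themselves on neighbouring cells and signal through small SH2 domain adaptors encoded by Sh2d1a and Sh2d1b1.

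The cells came from pmel-1 mice, which carry a transgenic T cell receptor for a peptide of the melanoma antigen gp100, and in every group they were wild type for Ucp2. The 4 treatments had 3 RNA-seq libraries each: genipin, genipin together with N-acetylcysteine (genipin+NAC), NAC alone, and vehicle, which was culture medium. Genipin is a plant compound used as an inhibitor of the mitochondrial carrier Ucp2, and NAC is a thiol antioxidant. In all groups alike, stimulation was by the peptide at 1 µM or by plate-bound anti-CD3 at 2 µg/ml with soluble anti-CD28 at 1 µg/ml, and expansion in medium with IL-2 at 10 ng/ml lasted 4 days. The labels do not say which stimulus these libraries had, so an antibody to the product of Cd28 may have been present in every group. They give neither the doses of genipin and NAC nor whether replicates came from separate mice or cultures, so p-values measure only the spread between these libraries.

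The libraries held 20838894 to 31098648 expected counts each, and 13636 genes passed to the tests. The library of genipin+NAC replicate 1 stood apart from its 2 partners, at a chi-square per degree of freedom of 7.25 and 8.32, against 2.09 between those partners and 2.23 to 3.01 between pairs in the other groups. The T cell identity was plain: Cd3e averaged 324 TPM (a level scaled by transcript length and library size) with genipin, 317 with genipin+NAC, 243 with NAC and 252 with vehicle, and Cd8a averaged 172 TPM with genipin, 277 with genipin+NAC, 368 with NAC and 186 with vehicle. The 10 T cell markers summed to between 3886 and 4964 TPM in every library. Ucp2 averaged 603 TPM with genipin, 519 with genipin+NAC, 500.4 with NAC and 675 with vehicle. TPM and the fitted fold changes are on different scales. The median log2 TPM ratio over the tested genes was 0.13 for genipin over vehicle, 0.07 for genipin+NAC over vehicle and 0.19 for NAC over vehicle, while the median fitted log2 fold change lay between -0.01 and 0.03 in all 6 contrasts. A TPM level below is therefore a description of each library, and rises and falls are read from the fit. In RNA from a bulk culture, fewer cells that express a gene and less of its RNA per cell cannot be told apart.

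Most of the 10 receptors differed from vehicle under each treatment, as did most genes of the cell, so the sizes and directions carry more than the counts. A gene was called at an adjusted p under 0.05 (edgeR quasi-likelihood F test, Benjamini-Hochberg over all tested genes). With genipin, 3 receptors rose and 6 fell against vehicle, where 29.9% of all tested genes were called higher and 31.0% lower. With genipin+NAC, 8 rose and 2 fell against vehicle, beside 28.5% higher and 28.9% lower of all genes. With NAC alone, 5 rose and 4 fell against vehicle, beside 29.6% higher and 30.0% lower. When NAC was added to genipin, 8 rose and 2 fell against genipin alone, beside 35.0% higher and 34.3% lower. When genipin was added to NAC, 6 rose and 1 fell against NAC alone, beside 26.6% higher and 26.5% lower. The interaction, which is the genipin effect with NAC minus the effect without NAC, was called positive for 6 and negative for 3 receptors, beside 27.4% positive and 24.0% negative of all genes. The 3 contrasts with vehicle share its libraries, so their values are given side by side.

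**Figure D1:**
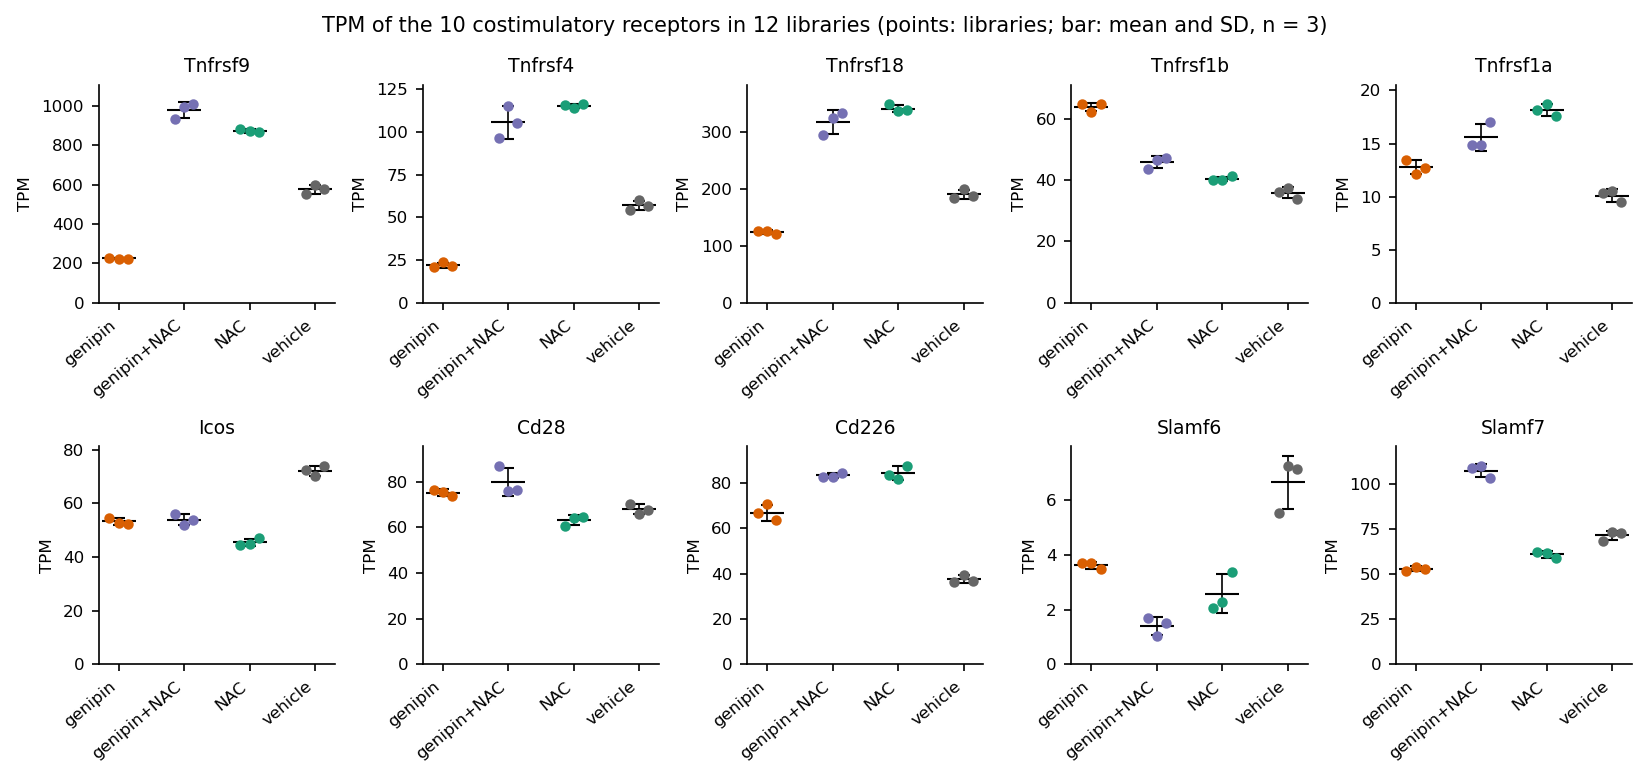
TPM of each receptor gene in all 12 libraries, with genipin, genipin+NAC, NAC and vehicle from left to right; points are libraries, bars are the mean and SD of 3, and each vertical axis starts at 0 with its own range. Tnfrsf9, Tnfrsf4 and Tnfrsf18 are lowest with genipin (means of 225 TPM for Tnfrsf9, 22.03 for Tnfrsf4 and 125 for Tnfrsf18), Tnfrsf1b is highest there (63.8 TPM), and vehicle is highest for Icos and Slamf6 and lowest for Cd226.

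Tnfrsf9, Tnfrsf4 and Tnfrsf18 encode the inducible receptors 4-1BB, OX40 and GITR, which activated T cells put on their surface and which sustain division and survival when bound. All 3 genes fell with genipin and rose with genipin+NAC and with NAC, each against vehicle. Tnfrsf9 was by far the most abundant of the 10 receptors per length in every group. It stood at 229.8, 222 and 223 TPM with genipin, at 933, 992 and 1007 TPM with genipin+NAC, at 881, 869 and 865 TPM with NAC, and at 551, 598 and 576 TPM with vehicle. No 2 groups overlapped, and genipin+NAC libraries were the highest. The fitted log2 fold change of Tnfrsf9 was -1.50 for genipin against vehicle (SE 0.029, adjusted p 3.97e-20), 0.70 for genipin+NAC against vehicle (SE 0.028, adjusted p 8.97e-15) and 0.31 for NAC against vehicle (SE 0.028, adjusted p 4.20e-09). Against genipin alone, genipin+NAC had 4.61 times the level (log2 2.20, adjusted p 2.09e-23). With NAC present, genipin raised Tnfrsf9 by a log2 fold change of 0.39 (SE 0.028, adjusted p 1.24e-10), the opposite direction to its effect without NAC.

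Tnfrsf4 stood at 20.9, 23.8 and 21.4 TPM with genipin, at 96.2, 115 and 105 TPM with genipin+NAC, at 116, 114 and 116 TPM with NAC, and at 54.4, 59.9 and 56.9 TPM with vehicle. Genipin libraries lay below all others and vehicle libraries came next, while the genipin+NAC and NAC libraries overlapped. Its log2 fold change was -1.55 for genipin against vehicle (SE 0.069, adjusted p 3.92e-14), 0.83 for genipin+NAC against vehicle (SE 0.057) and 0.80 for NAC against vehicle (SE 0.057). Genipin+NAC exceeded genipin by 2.38 on the log2 scale, the largest change of any of the 10 receptors in any contrast. Between genipin+NAC and NAC the difference in log2 was 0.03 (95% interval -0.09 to 0.14, adjusted p 0.710).

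Tnfrsf18 stood at 127, 126 and 121 TPM with genipin, at 295, 325 and 334 TPM with genipin+NAC, at 349, 337 and 339 TPM with NAC, and at 185, 199 and 188 TPM with vehicle. The order of groups was that of Tnfrsf4, with narrower steps. Genipin+NAC and NAC did not overlap in TPM but did in counts scaled by library total and normalization factor. Its log2 fold change was -0.76 for genipin (SE 0.044, adjusted p 3.14e-12), 0.67 for genipin+NAC (SE 0.042) and 0.64 for NAC (SE 0.042), each against vehicle, and 1.43 for genipin+NAC against genipin. Between genipin+NAC and NAC it was 0.03 (95% interval -0.05 to 0.12, adjusted p 0.505), and without genipin+NAC replicate 1 it was 0.09 with adjusted p 0.0166.

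The unequal falls changed the balance among these receptors. Tnfrsf18 had 5.68 ± 0.38 times the TPM of Tnfrsf4 with genipin, 3.02 ± 0.18 times with genipin+NAC, 2.97 ± 0.05 times with NAC and 3.35 ± 0.05 times with vehicle (SD, n = 3 each). Tnfrsf9 made up 31.6% to 32.4% of the summed TPM of the 10 receptors in genipin libraries, 54.3% to 55.0% with genipin+NAC, 52.7% to 53.2% with NAC and 50.6% to 51.5% with vehicle. The sum itself was 690 to 709 TPM with genipin, 1719 to 1830 TPM with genipin+NAC, 1633 to 1658 TPM with NAC and 1090 to 1162 TPM with vehicle. Among all genes ranked by mean TPM, Tnfrsf9 held place 498 with genipin, 153 with genipin+NAC, 154 with NAC and 217 with vehicle.

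Markers of other lymphocytes were measured beside this trio, since OX40 and GITR are also prominent on CD4 and regulatory T cells. Cd4 moved in the same directions as Tnfrsf4 against vehicle but at a trace level, averaging 0.29 TPM with genipin, 1.08 with genipin+NAC, 2.23 with NAC and 0.59 with vehicle. Foxp3, which defines regulatory T cells, never exceeded 0.16 TPM in a library. The 4 markers of CD4 and regulatory T cells summed to 11.24 to 15.99 TPM with genipin, 9.54 to 10.9 with genipin+NAC, 10.8 to 12.1 with NAC and 7.59 to 8.84 with vehicle, most of it Ikzf4. Of 5 B cell markers, 4 stayed below 1 TPM in every library, and Cd79b averaged 1.42 TPM with genipin, 6.003 with genipin+NAC, 11.2 with NAC and 2.703 with vehicle. The part of such cells in the results for Tnfrsf4 and Tnfrsf18 was not tested.

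These genes lie on mouse chromosome 4 (mm10, GENCODE release M21). Tnfrsf9 (ENSMUSG00000028965.13) spans chr4:150914562-150946102 on the plus strand, Tnfrsf4 (ENSMUSG00000029075.6) spans chr4:156013843-156016612 and Tnfrsf18 (ENSMUSG00000041954.18) spans chr4:156026164-156028895, also on the plus strand. Tnfrsf4 and Tnfrsf18 are neighbours with 9551 bases between them. Camta1 overlaps Tnfrsf9 on the opposite strand, and whether counting used strand is not given in the sources used here. Camta1 had 106 to 259 counts per library, against 6392 to 40811 for Tnfrsf9.

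The sequence before the transcription start is shown for the trio that moved together and, further down, for Tnfrsf1b, which rose with genipin where the trio fell. The windows are the 250 bases before each RefSeq start (GRCm38.p6, plus strand, 5′ to 3′), cut short where an annotated exon of GENCODE begins. The RefSeq promoter sequences used here held 8 starts for 7 of the 10 receptors, with no entry for Icos, Cd28 and Cd226. Bases just after the start were found in GENCODE transcripts of the gene, except for Tnfrsf4 and Slamf6. The Tnfrsf4 window ends at 156013694, before the GENCODE gene start at 156013843. Capitals mark matches, on either strand, to a kappaB-type motif (GGGNNNNNCC), an AP-1 motif (TGANTCA) or the core of an NFAT site (GGAAA, which reads TTTCC from the other strand).
Tnfrsf9, first start, chr4:150919905-150920154: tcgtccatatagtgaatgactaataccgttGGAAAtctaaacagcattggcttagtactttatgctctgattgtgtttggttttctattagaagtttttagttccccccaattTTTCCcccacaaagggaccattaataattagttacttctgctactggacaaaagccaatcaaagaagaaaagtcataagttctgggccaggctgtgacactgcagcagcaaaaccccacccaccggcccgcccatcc
Tnfrsf9, second start, chr4:150927749-150927917: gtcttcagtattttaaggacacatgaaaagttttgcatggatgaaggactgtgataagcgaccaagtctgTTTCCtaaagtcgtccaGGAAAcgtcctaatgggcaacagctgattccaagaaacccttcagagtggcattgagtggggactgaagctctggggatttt
Tnfrsf4, chr4:156013445-156013694: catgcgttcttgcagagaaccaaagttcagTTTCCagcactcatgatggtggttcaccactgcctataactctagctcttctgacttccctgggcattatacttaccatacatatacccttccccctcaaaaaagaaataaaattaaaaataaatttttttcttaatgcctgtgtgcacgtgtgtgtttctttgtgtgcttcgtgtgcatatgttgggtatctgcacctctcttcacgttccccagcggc
Tnfrsf18, chr4:156026072-156026163: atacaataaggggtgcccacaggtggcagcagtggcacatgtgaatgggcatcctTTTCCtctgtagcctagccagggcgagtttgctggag
Both Tnfrsf9 windows lie within the GENCODE span of the gene, which starts at 150914562. The bases shown for the second Tnfrsf9 start stop where an annotated exon of the gene begins. Past that point its window holds overlapping kappaB-type matches and an AP-1 match close to the start.
Tnfrsf9, kappaB-type match, chr4:150927952-150927971: agctgGGGATTTCCCaggag
Tnfrsf9, AP-1 match, chr4:150927979-150927995: tcagtTGAGTCAcaggt
Counted over whole windows, the second Tnfrsf9 start had 2 kappaB-type matches, 1 AP-1 match and 3 NFAT cores. Its first start had 2 NFAT cores, Tnfrsf4 had 1 and Tnfrsf18 had 2, with no match to the other motifs. Of 32536 mouse windows of the same length, 46.0% held the kappaB-type motif, 6.73% the AP-1 motif and 55.7% the NFAT core. A match describes the letters and is not a measured binding site.

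Tnfrsf1b and Tnfrsf1a encode the receptors for TNF itself, TNFR2 and TNFR1. TNFR2 acts as a costimulator on T cells, while TNFR1 carries a death domain and can also lead to NF-kappaB signalling. Tnfrsf1b was the receptor that genipin raised most in the fit: it stood at 64.65, 62.2 and 64.7 TPM with genipin, at 43.6, 46.4 and 47.3 TPM with genipin+NAC, at 40.05, 39.98 and 41.25 TPM with NAC, and at 36.2, 37.5 and 34.0 TPM with vehicle. Genipin libraries were above all others. The log2 fold change was 0.74 for genipin against vehicle (SE 0.038, adjusted p 3.36e-13) and 0.33 for genipin+NAC against vehicle (SE 0.038, adjusted p 2.23e-07). For NAC against vehicle it was 0.02 (95% interval -0.07 to 0.10, adjusted p 0.758), although the TPM of these 2 groups did not overlap. Adding NAC to genipin lowered Tnfrsf1b by a log2 fold change of -0.42 (SE 0.037, adjusted p 1.91e-09), the reverse of what it did to the inducible trio.

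Tnfrsf1a was low, at 13.5, 12.1 and 12.7 TPM with genipin, 14.8, 14.9 and 17.0 TPM with genipin+NAC, 18.2, 18.7 and 17.6 TPM with NAC, and 10.3, 10.6 and 9.46 TPM with vehicle. Vehicle libraries were the lowest. It rose by 0.21 in log2 with genipin (SE 0.072, adjusted p 0.0144), by 0.58 with genipin+NAC (SE 0.070, adjusted p 4.28e-07) and by 0.68 with NAC (SE 0.070, adjusted p 3.84e-08), each against vehicle. The genipin call did not hold without vehicle replicate 1 (adjusted p 0.0708), without vehicle replicate 3 (0.0574) or without genipin replicate 1 (0.0637). Genipin+NAC and NAC differed by -0.10 in log2 (95% interval -0.24 to 0.04, adjusted p 0.229). Per length, Tnfrsf1b exceeded Tnfrsf1a 5.005 ± 0.184 times with genipin, 2.95 ± 0.17 times with genipin+NAC, 2.23 ± 0.10 times with NAC and 3.55 ± 0.04 times with vehicle (SD, n = 3 each).

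Tnfrsf1b (ENSMUSG00000028599.10) lies on the minus strand of chromosome 4 at chr4:145213463-145246870, and Tnfrsf1a (ENSMUSG00000030341.17) lies at chr6:125349362-125362484. The Tnfrsf1b window is shown because genipin raised this gene against vehicle where the trio fell, though genipin+NAC raised it as it did the trio. The window held 3 overlapping kappaB-type matches within a GC-rich stretch and neither of the other motifs.
Tnfrsf1b, minus strand, chr4:145246871-145247120: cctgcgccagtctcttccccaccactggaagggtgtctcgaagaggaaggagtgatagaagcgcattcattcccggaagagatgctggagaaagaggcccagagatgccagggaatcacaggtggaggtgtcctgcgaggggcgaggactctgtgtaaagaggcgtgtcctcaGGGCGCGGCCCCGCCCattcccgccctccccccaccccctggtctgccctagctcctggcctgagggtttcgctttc
Tnfrsf1a had 1 kappaB-type match in its own window, Slamf6 had 1, and Slamf7 had 1 AP-1 match and 3 NFAT cores.

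**Figure D2:**
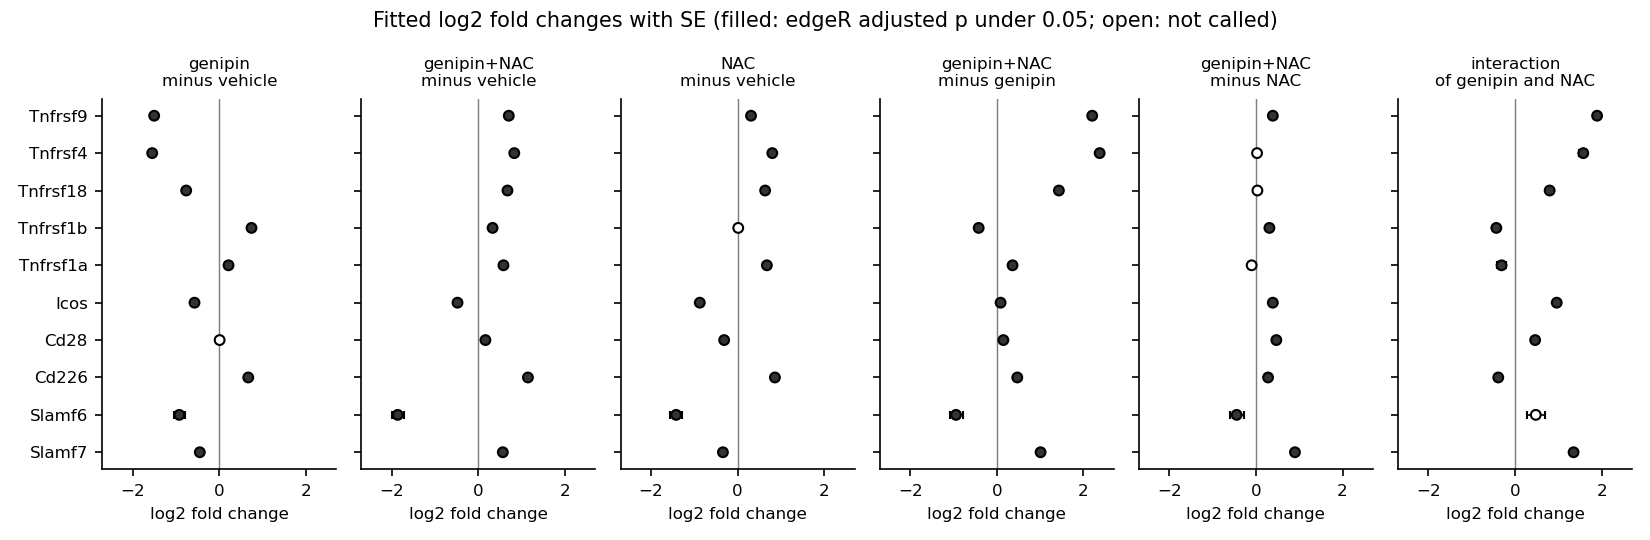
Fitted log2 fold changes of the 10 receptors in the 6 contrasts, with bars for the SE; filled points were called at an edgeR adjusted p under 0.05. The panel of genipin+NAC minus genipin shows Tnfrsf9 and Tnfrsf4 past 2 on the log2 scale (2.20 for Tnfrsf9 and 2.38 for Tnfrsf4), and that of genipin minus vehicle shows Tnfrsf9 at -1.50 and Tnfrsf4 at -1.55.

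Icos and Cd28, the pair of B7 receptors, differed from the trio and from each other. Icos, which is induced on activation, fell under every treatment. It stood at 54.7, 52.8 and 52.3 TPM with genipin, at 56.1, 51.8 and 53.8 TPM with genipin+NAC, at 44.7, 44.8 and 47.0 TPM with NAC, and at 72.3, 70.3 and 74.0 TPM with vehicle. Vehicle libraries lay above all 9 others, and NAC libraries lay below all others. The log2 fold change against vehicle was -0.57 with genipin (SE 0.033, adjusted p 3.00e-12), -0.48 with genipin+NAC (SE 0.033, adjusted p 5.61e-11) and -0.87 with NAC (SE 0.034, adjusted p 3.97e-15). Between genipin+NAC and genipin it was 0.09 (SE 0.033, adjusted p 0.0233) with overlapping libraries, and that call was lost without genipin replicate 2 (adjusted p 0.0641), genipin replicate 3 (0.0925), genipin+NAC replicate 1 (0.0573) or genipin+NAC replicate 3 (0.0590). It was also lost without normalization factors (0.0999), without the filter (0.0532), with only the groups compared (0.0629), with effective-length offsets (0.0640) and under DESeq2 (0.0536).

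Cd28, which resting T cells already carry, differed by no more than 0.47 in log2 in any contrast. It stood at 76.4, 75.45 and 73.55 TPM with genipin, at 86.9, 75.9 and 76.5 TPM with genipin+NAC, at 60.6, 64.1 and 64.7 TPM with NAC, and at 70.4, 65.8 and 67.8 TPM with vehicle. Genipin+NAC replicate 1 was the highest library. Genipin and vehicle differed by 0.01 in log2 (95% interval -0.07 to 0.09, adjusted p 0.866). Cd28 rose by 0.16 with genipin+NAC (SE 0.039, adjusted p 0.00116) and changed by -0.31 with NAC (SE 0.039, adjusted p 6.74e-07), each against vehicle, and genipin raised it by 0.47 where NAC was present (SE 0.039, adjusted p 1.48e-09).

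Ctla4, the inhibitory receptor that competes with Cd28 for its ligands, moved in the same directions as Tnfrsf9 against vehicle. It averaged 80.0 TPM with genipin, 355 with genipin+NAC, 296 with NAC and 215 with vehicle, and its log2 fold change was -1.56 with genipin (SE 0.041, adjusted p 5.84e-18), 0.67 with genipin+NAC (SE 0.038) and 0.26 with NAC (SE 0.038) against vehicle. The TPM ratio of Ctla4 to Cd28 was 1.06 ± 0.04 with genipin, 4.45 ± 0.08 with genipin+NAC, 4.70 ± 0.09 with NAC and 3.16 ± 0.07 with vehicle (SD, n = 3 each). That of Icos to Cd28 was 0.709 ± 0.008 with genipin, 0.677 ± 0.029 with genipin+NAC, 0.721 ± 0.020 with NAC and 1.06 ± 0.03 with vehicle. Icos was thus about level with Cd28 in vehicle libraries and below it in all 9 treated ones. The 3 genes are neighbours on chromosome 1: Cd28 (ENSMUSG00000026012.2) spans chr1:60716800-60773359, Ctla4 chr1:60887000-60915832 and Icos (ENSMUSG00000026009.14) chr1:60977927-61000320, with 113640 and 62094 bases between them.

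Cd226 encodes DNAM-1, a receptor that aids adhesion and killing. It rose under every treatment and stood at 66.6, 70.6 and 63.6 TPM with genipin, at 82.8, 82.8 and 84.5 TPM with genipin+NAC, at 83.55, 81.6 and 87.6 TPM with NAC, and at 36.2, 39.55 and 36.9 TPM with vehicle. All 9 treated libraries lay above the vehicle libraries. The log2 fold change against vehicle was 0.67 with genipin (SE 0.048, adjusted p 1.27e-10), 1.14 with genipin+NAC (SE 0.047, adjusted p 1.58e-14) and 0.86 with NAC (SE 0.048, adjusted p 1.94e-12). Genipin+NAC exceeded NAC by 0.28 (SE 0.045, adjusted p 1.73e-05) in the counts, but their TPM overlapped, and with offsets from the effective lengths the difference was 0.12 with adjusted p 0.0712. Cd226 (ENSMUSG00000034028.16) spans chr18:89176967-89272229.

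Tigit, the inhibitory receptor for the same ligands, averaged 119 TPM with genipin, 107 with genipin+NAC, 79.1 with NAC and 118 with vehicle. It fell by 0.78 in log2 with NAC (SE 0.047, adjusted p 6.23e-12), by 0.21 with genipin+NAC (SE 0.045, adjusted p 0.000448) and by 0.13 with genipin (SE 0.045, adjusted p 0.0187), each against vehicle. The TPM ratio of Tigit to Cd226 was 1.77 ± 0.06 with genipin, 1.28 ± 0.04 with genipin+NAC, 0.940 ± 0.058 with NAC and 3.15 ± 0.02 with vehicle (SD, n = 3 each). The inhibitory transcript was thus the more abundant in vehicle, genipin and genipin+NAC libraries, and close to level with Cd226 in NAC libraries.

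**Figure D3:**
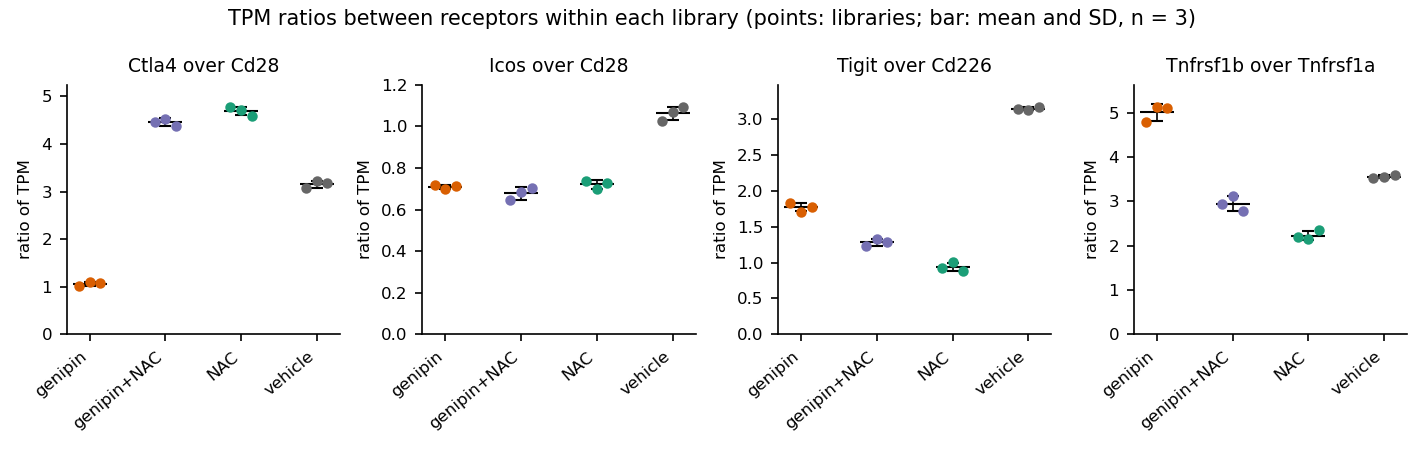
Ratio of the TPM of one receptor gene to another within each library, with genipin, genipin+NAC, NAC and vehicle from left to right; points are libraries, and bars are the mean and SD of 3. Ctla4 over Cd28 is lowest with genipin (1.06), while Icos over Cd28 and Tigit over Cd226 are highest with vehicle (1.06 and 3.15).

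Slamf6 and Slamf7 belong to the SLAM family of homophilic receptors on chromosome 1. Slamf6, which is known to mark progenitor-like CD8 T cells, was the lowest of the 10 receptors and fell under every treatment. It stood at 3.68, 3.69 and 3.47 TPM with genipin, at 1.68, 1.05 and 1.49 TPM with genipin+NAC, at 2.06, 2.28 and 3.38 TPM with NAC, and at 5.53, 7.24 and 7.14 TPM with vehicle. These levels rest on 84 to 137 counts per library with genipin, 46 to 70 with genipin+NAC, 63 to 90 with NAC and 193 to 219 with vehicle. The log2 fold change against vehicle was -0.92 with genipin (SE 0.127, adjusted p 2.00e-06), -1.86 with genipin+NAC (SE 0.139, adjusted p 2.65e-10) and -1.42 with NAC (SE 0.134, adjusted p 8.83e-09). Genipin+NAC was below genipin, at -0.94 (SE 0.150, adjusted p 1.04e-05) and below NAC, at -0.44 (SE 0.158, adjusted p 0.0227). The last call was lost without genipin+NAC replicate 1 (adjusted p 0.0837), without genipin+NAC replicate 3 (0.0536) and without NAC replicate 3 (0.0998). The effective length that RSEM gave the gene ran from 1176 to 2777 bases between libraries, so its TPM varies with that estimate as well as with its counts.

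Slamf7, a receptor of cytotoxic lymphocytes, was highest where both compounds were present. It stood at 51.5, 54.2 and 53.1 TPM with genipin, at 109, 110.1 and 103 TPM with genipin+NAC, at 62.6, 61.6 and 58.9 TPM with NAC, and at 68.6, 73.3 and 72.9 TPM with vehicle. No 2 groups overlapped. The log2 fold change against vehicle was -0.45 with genipin (SE 0.033, adjusted p 1.33e-10), 0.56 with genipin+NAC (SE 0.031, adjusted p 2.02e-12) and -0.34 with NAC (SE 0.032, adjusted p 1.19e-08). Each compound alone lowered Slamf7, yet genipin+NAC exceeded genipin by 1.01 (SE 0.032) and NAC by 0.90 (SE 0.032). Slamf7 (ENSMUSG00000038179.13) spans chr1:171632403-171653035 on the minus strand and Slamf6 (ENSMUSG00000015314.10) spans chr1:171917515-171953170.

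The genipin effect depended on NAC, by a called interaction, for 9 of the 10 receptors. Of all tested genes, 27.4% had a positive interaction called and 24.0% a negative one. The interaction in log2 was 1.89 for Tnfrsf9 (SE 0.040, adjusted p 1.95e-19), 1.57 for Tnfrsf4 (SE 0.088, adjusted p 2.25e-12), 1.35 for Slamf7 (SE 0.046, adjusted p 5.22e-16), 0.96 for Icos (SE 0.047, adjusted p 2.61e-13), 0.80 for Tnfrsf18 (SE 0.060, adjusted p 3.53e-10) and 0.46 for Cd28 (SE 0.055, adjusted p 3.59e-07). For these genes genipin had a more positive effect with NAC present. It was -0.43 for Tnfrsf1b (SE 0.053, adjusted p 6.49e-07), -0.39 for Cd226 (SE 0.066, adjusted p 4.07e-05) and -0.31 for Tnfrsf1a (SE 0.098, adjusted p 0.0113). The rise with genipin was thus smaller for Tnfrsf1b and Cd226 where NAC was present, and for Tnfrsf1a no rise was called there. With effective-length offsets the Cd226 rise where NAC was present was not called either (0.12, adjusted p 0.0712). For Slamf6 the interaction was 0.48 (95% interval 0.05 to 0.90, adjusted p 0.0555), which did not pass, and it was called without genipin replicate 3 (0.58, adjusted p 0.0279), genipin+NAC replicate 1 (0.56, adjusted p 0.0284) or NAC replicate 3 (0.56, adjusted p 0.0406). The sign of the genipin effect turned with NAC, with a call on both sides, for Tnfrsf9, Icos and Slamf7. How often that held over all tested genes was not counted. The median interaction over all tested genes was 0.03, and over the 10 receptors 0.64.

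**Figure D4:**
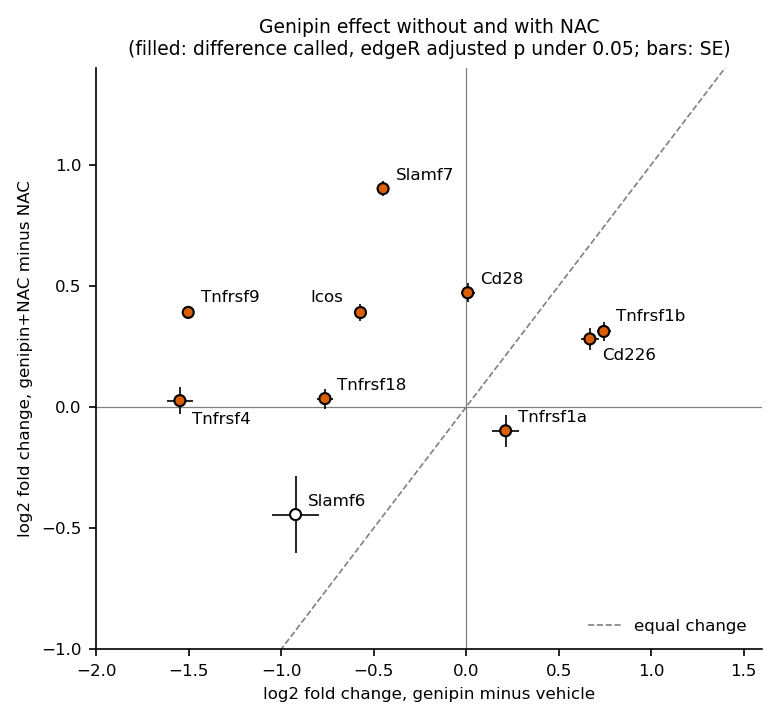
Fitted log2 fold change of genipin+NAC minus NAC (vertical) against that of genipin minus vehicle (horizontal) for the 10 receptors, with SE bars; the dashed line marks an equal effect with and without NAC. The 6 filled points above the line include Tnfrsf9 at 0.39 against -1.50 and Slamf7 at 0.90 against -0.45, and Tnfrsf1b, Cd226 and Tnfrsf1a lie below it.

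In vehicle libraries the order by TPM was Tnfrsf9, Tnfrsf18, Icos, Slamf7, Cd28, Tnfrsf4, Cd226, Tnfrsf1b, Tnfrsf1a and Slamf6. The ranges of Icos and Slamf7, of Slamf7 and Cd28, and of Cd226 and Tnfrsf1b overlapped, so those neighbours did not differ beyond their spread. With genipin the order was Tnfrsf9, Tnfrsf18, Cd28, Cd226, Tnfrsf1b, Icos, Slamf7, Tnfrsf4, Tnfrsf1a and Slamf6, and Tnfrsf4 held place 4841 among all genes there, against 1950 with vehicle. In the genipin order the ranges of Cd226 and Tnfrsf1b, and of Icos and Slamf7, overlapped.

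Ligands of the receptors were measured in the same cells, and 9 of 10 passed the filter. Tnfsf18, the ligand of GITR, was listed at 0 in every library. Tnfsf4, the ligand of OX40, averaged 3.92 TPM with genipin, 8.46 with genipin+NAC, 7.57 with NAC and 3.24 with vehicle, and rose by 1.31 in log2 with genipin+NAC (SE 0.112, adjusted p 2.29e-09) and by 1.02 with NAC (SE 0.115, adjusted p 1.35e-07) against vehicle. Tnfsf9, the ligand of 4-1BB, averaged 3.39 TPM with genipin, 4.95 with genipin+NAC, 6.72 with NAC and 4.32 with vehicle, and fell with genipin by 0.49 in log2 (SE 0.160, adjusted p 0.0122) and rose with NAC by 0.43 (SE 0.147, adjusted p 0.0168). Pvr, a ligand of Cd226 and Tigit, averaged 4.66 TPM with genipin, 11.8 with genipin+NAC, 9.45 with NAC and 6.31 with vehicle. Its log2 fold change was -0.59 with genipin, 0.81 with genipin+NAC and 0.44 with NAC against vehicle, all called, while Nectin2 stayed below 1 TPM throughout.

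The B7 ligands split. Cd80 averaged 23.2 TPM with genipin, 23.1 with genipin+NAC, 24.6 with NAC and 32.9 with vehicle, a log2 fold change against vehicle of -0.51 with genipin, -0.47 with genipin+NAC and -0.59 with NAC, all called. Cd86 rose with genipin+NAC by 1.81 in log2 against vehicle (SE 0.231, adjusted p 8.12e-07), at low levels of 2.11 TPM with genipin+NAC and 0.53 TPM with vehicle. Icosl, the ligand of Icos, rose under every treatment by 1.04 to 1.19 in log2 against vehicle, at 3.75 TPM with genipin, 2.98 with genipin+NAC, 3.43 with NAC and 1.46 with vehicle, while Icos itself fell. Tnf averaged 52.3 TPM with genipin, 36.6 with genipin+NAC, 47.6 with NAC and 42.6 with vehicle, and rose by 0.17 with genipin (SE 0.046, adjusted p 0.00359) and fell by 0.28 with genipin+NAC (SE 0.047, adjusted p 3.54e-05). Lta, a second ligand of the TNF receptors, averaged 49.5 TPM with NAC and 23.9 TPM with vehicle (log2 0.85, SE 0.057, adjusted p 3.92e-11). Against vehicle, Lta changed by -0.19 with genipin+NAC, which was called, and by -0.07 with genipin, which was not. Over the 9 tested ligands, 2 rose and 4 fell with genipin, 4 rose and 3 fell with genipin+NAC, and 5 rose and 1 fell with NAC, at median log2 fold changes of -0.07 with genipin, 0.12 with genipin+NAC and 0.43 with NAC, where the median over all tested genes was within 0.01 of 0. All tested genes were called 29.9% higher and 31.0% lower with genipin, 28.5% and 28.9% with genipin+NAC, and 29.6% and 30.0% with NAC. The ligands' shares were 22.2% higher and 44.4% lower with genipin, 44.4% and 33.3% with genipin+NAC, and 55.6% and 11.1% with NAC, each of few genes.

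**Figure D5:**
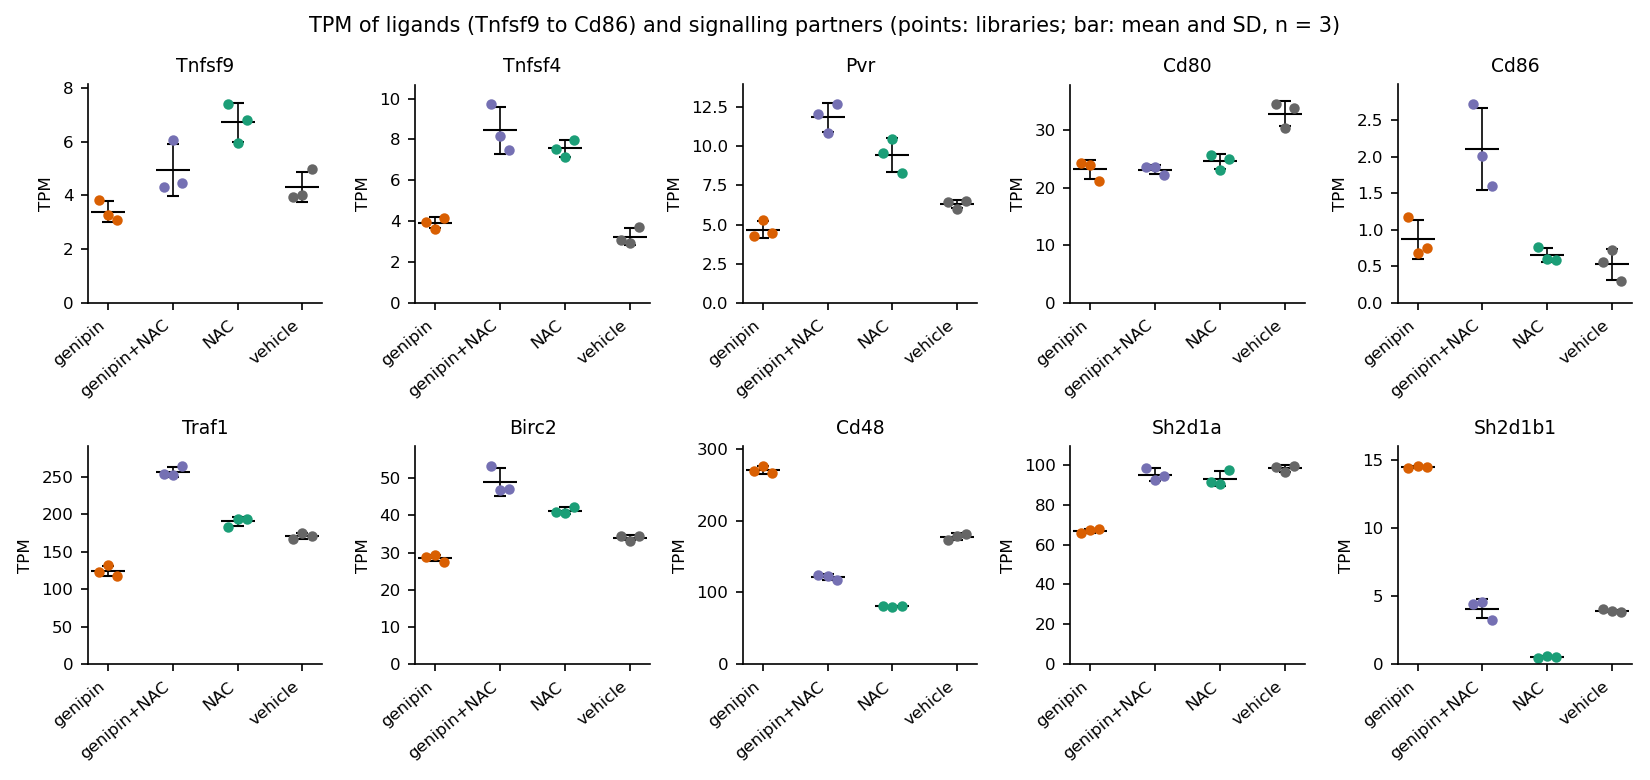
TPM of 5 ligand genes (Tnfsf9, Tnfsf4, Pvr, Cd80, Cd86), 4 signalling genes (Traf1, Birc2, Sh2d1a, Sh2d1b1) and the SLAM family gene Cd48 in all 12 libraries, with genipin, genipin+NAC, NAC and vehicle from left to right; bars are the mean and SD of 3. Traf1 is lowest with genipin (125 TPM) and highest with genipin+NAC (257 TPM), and Sh2d1b1 is highest with genipin (14.5 TPM).

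Downstream of the TNF receptors, Traf1, an adaptor that binds 4-1BB and TNFR2, moved in the same directions as the trio with genipin and genipin+NAC. It averaged 125 TPM with genipin, 257 with genipin+NAC, 191 with NAC and 171 with vehicle, at log2 fold changes against vehicle of -0.58 with genipin (SE 0.031, adjusted p 1.23e-12), 0.49 with genipin+NAC (SE 0.031, adjusted p 1.38e-11) and -0.08 with NAC (SE 0.031, adjusted p 0.0269). The direction with NAC was not stable, since it was 0.04 without normalization factors (adjusted p 0.293) and the mean TPM was higher with NAC than with vehicle. Birc2, a ubiquitin ligase of the same complexes, changed by -0.32 with genipin and 0.50 with genipin+NAC, both called. Map3k14, the kinase NIK of the noncanonical NF-kappaB route, fell by 1.06 with genipin (SE 0.053, adjusted p 3.37e-13) and by 0.29 with genipin+NAC. Tab2, an adaptor of the kinase TAK1, rose by 0.61 with genipin (SE 0.034), by 0.35 with genipin+NAC and by 0.38 with NAC, all called. Of the 19 signalling genes, 10 rose and 4 fell with genipin, 9 rose and 4 fell with genipin+NAC, and 4 rose and 5 fell with NAC, at median log2 fold changes of 0.17 with genipin, 0.06 with genipin+NAC and -0.00185 with NAC. That is 52.6% higher and 21.1% lower with genipin, beside 29.9% and 31.0% of all tested genes. With genipin+NAC it is 47.4% higher and 21.1% lower, beside 28.5% and 28.9%. With NAC it is 21.1% higher and 26.3% lower, below the 29.6% and 30.0% of all tested genes.

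Of the other TNF receptors, 14 of 21 passed the filter. Of them 6 fell with genipin, 5 rose and 5 fell with genipin+NAC, and 8 rose and 2 fell with NAC, at median log2 fold changes of -0.21 with genipin, -0.14 with genipin+NAC and 0.26 with NAC. With genipin+NAC the shares were 35.7% in each direction, near the 28.5% higher and 28.9% lower of all tested genes. They were 42.9% lower with genipin, beside 31.0%, and 57.1% higher and 14.3% lower with NAC, beside 29.6% and 30.0%. Fas, the death receptor, moved in the same directions as the trio against vehicle: it averaged 3.69 TPM with genipin, 17.2 with genipin+NAC, 26.3 with NAC and 9.52 with vehicle, at -1.53 with genipin, 0.70 with genipin+NAC and 1.24 with NAC in log2 against vehicle, all called. Tnfrsf8, which encodes CD30, fell under every treatment, at 39.9 TPM with genipin, 50.7 with genipin+NAC, 74.1 with NAC and 141 with vehicle. Cd27, a costimulator of the same family, averaged 38.4 TPM with genipin, 59.0 with genipin+NAC, 55.6 with NAC and 34.6 with vehicle, with log2 fold changes of 0.70 with genipin+NAC and 0.46 with NAC that were called and 0.01 with genipin that was not.

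Among 18 signalling genes of Cd28 and Icos, 11 rose and 4 fell with genipin, 12 rose and 3 fell with genipin+NAC, and 7 rose and 6 fell with NAC, at median log2 fold changes of 0.18 with genipin, 0.19 with genipin+NAC and 0.02 with NAC. The share called higher was 61.1% with genipin, 66.7% with genipin+NAC and 38.9% with NAC, beside 29.9%, 28.5% and 29.6% of all tested genes. The share called lower was 22.2% with genipin, 16.7% with genipin+NAC and 33.3% with NAC, beside 31.0%, 28.9% and 30.0%. Pik3r1, a regulatory subunit of phosphoinositide 3-kinase, rose by 0.36 with genipin and by 0.78 with genipin+NAC, both called, at -0.01 with NAC (adjusted p 0.775). Malt1, a scaffold protease on the route to NF-kappaB, changed by -0.26 with genipin, 0.55 with genipin+NAC and -0.17 with NAC, all called. Vav1, a guanine nucleotide exchange factor, changed by 0.39 with genipin, -0.27 with genipin+NAC and -0.36 with NAC.

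Most genes of the list of other SLAM family and adaptor genes rose with genipin, where Slamf6 and Slamf7 fell. Within the family itself the list split. Slamf1 changed by -0.52 in log2 with genipin (SE 0.084, adjusted p 1.81e-05). Cd84 also fell, at 28.1 TPM with genipin and 32.8 TPM with vehicle, while Cd48, Cd244a and Ly9 rose. Of the 11 tested genes of that list, 8 rose and 3 fell with genipin, 5 rose and 3 fell with genipin+NAC, and 3 rose and 7 fell with NAC, at median log2 fold changes of 0.47 with genipin, 0.14 with genipin+NAC and -0.25 with NAC. The share called higher with genipin was 72.7%, beside 29.9% of all tested genes, and that called lower was 27.3%, beside 31.0%. With genipin+NAC the shares were 45.5% higher and 27.3% lower, beside 28.5% and 28.9%, and with NAC 27.3% and 63.6%, beside 29.6% and 30.0%. Cd48, whose receptor is Cd244a, averaged 271 TPM with genipin, 122 with genipin+NAC, 80.5 with NAC and 178 with vehicle. Cd244a averaged 64.6 TPM with genipin, 41.0 with genipin+NAC, 13.003 with NAC and 26.4 with vehicle, at 1.21 with genipin (SE 0.039), 0.55 with genipin+NAC (SE 0.040) and -1.24 with NAC (SE 0.046) in log2 against vehicle, all called. Ptpn6, a phosphatase that SLAM receptors can recruit, rose by 0.99 with genipin (SE 0.029, adjusted p 4.61e-17). Sh2d1a, the adaptor SAP, chosen after its values were seen, averaged 66.8 TPM with genipin, 95.003 with genipin+NAC, 93.0 with NAC and 98.2 with vehicle. Sh2d1b1, the adaptor EAT-2 through which Slamf7 signals in natural killer cells, averaged 14.5 TPM with genipin, 4.08 with genipin+NAC, 0.53 with NAC and 3.94 with vehicle, at 1.75 with genipin (SE 0.090, adjusted p 4.81e-13) and -3.09 with NAC (SE 0.153, adjusted p 2.63e-13) against vehicle.

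Of the natural killer cell markers, Eomes, Ncr1 and Klrb1c averaged highest with genipin and lowest with NAC, as Sh2d1b1 and Cd244a did. Klra8 stayed at or below 0.05 TPM in every library. The 4 markers summed to 47.5 to 48.0 TPM with genipin, 32.7 to 34.9 with genipin+NAC, 18.3 to 18.8 with NAC and 23.5 to 25.1 with vehicle, most of it Eomes, which CD8 T cells also express. Ncr1, which defines natural killer cells, averaged 1.98 TPM with genipin, 0.14 with genipin+NAC, 0 with NAC and 0.06 with vehicle, and Klrb1c averaged 5.25 TPM with genipin, 3.35 with genipin+NAC, 1.01 with NAC and 1.54 with vehicle. Of 9 myeloid and dendritic markers, which summed to 10.6 to 11.9 TPM with genipin, 20.7 to 22.9 with genipin+NAC, 6.44 to 6.98 with NAC and 7.19 to 8.03 with vehicle, Csf1r, Adgre1 and Xcr1 stayed at or below 0.05 TPM and Siglech was at 0. Most of that sum was Itgam and Itgax, integrin subunits of myeloid and dendritic cells that activated T cells can also express. Itgam averaged 1.36 TPM with genipin, 10.3 with genipin+NAC, 3.34 with NAC and 2.07 with vehicle, and Itgax averaged 6.80 TPM with genipin, 9.11 with genipin+NAC, 2.47 with NAC and 3.86 with vehicle. Both were highest with genipin+NAC, as Slamf7 was, but Cd14, Flt3 and Lyz2 of the same list were not. Cd14 averaged 2.87 TPM with genipin, 2.03 with genipin+NAC, 0.60 with NAC and 1.29 with vehicle. Flt3 was highest with vehicle (0.45 TPM) and Lyz2 with NAC (0.22 TPM). The part of other cells in the results for Slamf7 and the SLAM list was not tested.

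The remaining inhibitory receptors, all 7 of the list being tested, moved apart from one another. In the list 4 rose and 3 fell with genipin, 5 rose and 1 fell with genipin+NAC, and 2 rose and 4 fell with NAC, at median log2 fold changes of 0.64 with genipin, 0.59 with genipin+NAC and -0.54 with NAC. In shares that is 57.1% higher and 42.9% lower with genipin, 71.4% and 14.3% with genipin+NAC, and 28.6% and 57.1% with NAC, each of 7 genes, beside 28.5% to 31.0% in each direction over all tested genes. Pdcd1, which encodes PD-1, averaged 82.4 TPM with genipin, 166 with genipin+NAC, 31.96 with NAC and 44.4 with vehicle, and like Slamf7 it was highest with both compounds. Cd160 rose by 2.55 in log2 with genipin (SE 0.068, adjusted p 7.51e-18), at 97.3 TPM with genipin and 15.3 TPM with vehicle. Cd96, a further receptor for Pvr, averaged 159 TPM with genipin, 111 with genipin+NAC, 73.7 with NAC and 93.2 with vehicle, and Pvrig, which shares the Nectin2 ligand in human cells, averaged 11.4 TPM with genipin, 4.79 with genipin+NAC, 1.14 with NAC and 3.07 with vehicle. Btla changed by -0.78 with genipin (SE 0.175, adjusted p 0.000629) and by 1.37 with NAC (SE 0.143, adjusted p 4.40e-08).

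Some genes followed a receptor closely over the 12 libraries, among 9479 genes searched by Pearson correlation of log2 CPM (counts scaled by library total and normalization factor). The libraries fall into 4 treatment groups, so a value near 1 mainly records a shared order of group means, and no p is given. The closest to Tnfrsf9 was Vegfa, a secreted growth factor, at r = 0.998, followed by Pde4b. The closest to Tnfrsf4 was P4ha2, a collagen prolyl hydroxylase subunit, at 0.996, and the closest to Tnfrsf18 was H2-Q7, a class Ib histocompatibility gene, at 0.998. Slamf7 was followed by Slc16a3, a lactate transporter, at 0.995, and then by Dusp6 and Map2k1, a phosphatase and a kinase of the ERK pathway. Tnfrsf1b was followed by Smap2 at 0.994, Cd226 by Tcf12 at 0.990 and Ets1 at 0.984, both transcription factors, Icos by Gmfg at 0.988, Slamf6 by Rexo2 at 0.983, Tnfrsf1a by Baz2a at 0.980 and Cd28 by Arl6ip5 at 0.977.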

How the data were processed

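Total RNA of 12 libraries was sequenced as 2x150bp pairs from a stranded kit with ribosomal RNA removal, per the labels' protocols. Per the submitters' processing notes, the tools were RSEM 1.3.1, STAR 2.7.0f, cutadapt 1.18 and bcl2fastq, and the build was mm10; the strand setting is not given in the sources used here. The authors deposited 1 gene table per library with expected counts, TPM, FPKM and effective lengths, per the file headers. FPKM as deposited were not used, since they repeat TPM up to a factor per library. All 55450 gene IDs and symbols equal those of GENCODE M21, which supplied coordinates.

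Groups came from the labels. Expected counts were rounded, and genes with low counts were removed with filterByExpr of edgeR 4.0.16 (R 4.3.3), which left 13636. The model gave each of the 4 groups a mean, used all 12 libraries and TMM factors (0.961 to 1.05), and had 8 residual and 12.6 prior degrees of freedom. Contrasts of group means went to edgeR's quasi-likelihood F test, and p-values were adjusted by Benjamini-Hochberg over all 13636 genes. SE is the absolute log2 fold change over the square root of F. CPM were computed from the counts and scaled totals, and levels between genes are compared in deposited TPM. The steps were tested on simulated data.

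The receptors, gene lists and naming rule were chosen with earlier results of these data known. The rule took Ucp2, the 10 receptors, all ligands and inhibitory receptors, up to 4 genes of smallest p per other list, and the 3 tested genes of at least 5 CPM closest to each receptor; 2 genes that the rule took are not reported here. Sh2d1a, Cd8a, Cd4 and other cell type markers are named beside them for context. Alternatives were RLE factors, no factors, no filter, a 2-fold minimum, an adjusted p below 0.01, genes of at least 5 CPM on average, only the groups compared, effective-length offsets, DESeq2 1.42.0, limma-voom (limma 3.58.1), the replicate number as a block, and each library left out. Promoter sequences are from RefSeq (GRCm38.p6). Figures used matplotlib 3.10.9 and Python 3.11.15.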

Additional observations from a re-analysis of the deposited data

Results flagged for a closer look

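The effect of genipin differed with and without NAC for 9 of the 10 receptors, by the interaction term of the edgeR fit with adjusted p under 0.05. Over all tested genes that term was called positive for 27.4% and negative for 24.0%. Each difference below is the log2 effect with NAC minus that without NAC, with both effects beside it.

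The difference was 1.89 for Tnfrsf9, where genipin changed the level by 0.39 with NAC and by -1.50 without. It was 1.57 for Tnfrsf4, at 0.03 with NAC, which was not called, and -1.55 without. For Slamf7 it was 1.35, at 0.90 with NAC and -0.45 without. It was 0.96 for Icos, at 0.39 with NAC and -0.57 without. The value for Tnfrsf18 was 0.80, at 0.03 with NAC, which was not called, and -0.76 without. For Cd28 it was 0.46, at 0.47 with NAC and 0.01 without, the last not called.

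The difference was negative for 3 receptors whose level genipin raised. It was -0.43 for Tnfrsf1b, at 0.31 with NAC and 0.74 without. For Cd226 it was -0.39, at 0.28 with NAC and 0.67 without. With effective-length offsets the Cd226 effect with NAC was 0.12 and was not called (adjusted p 0.0712). For Tnfrsf1a the difference was -0.31, at -0.10 with NAC, which was not called, and 0.21 without.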

How the results depend on the processing

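Of the alternatives for the 60 receptor results, 1286 kept direction and call, 63 lost the call, 6 gained it and 9 reversed a difference near 0. Of the 63 lost calls, 42 fell to the 2-fold minimum and 4 to an adjusted p under 0.01, which are stricter thresholds on the same fit. A 2-fold minimum left 0 receptors higher and 2 lower for genipin against vehicle, 1 and 1 for genipin+NAC against vehicle, 0 and 1 for NAC against vehicle, 4 and 0 for genipin+NAC against genipin, 0 and 0 for genipin+NAC against NAC, and 3 and 0 for the interaction. Of all tested genes, called or not, 10.8% changed at least 2-fold either way for genipin against vehicle, 8.6% for genipin+NAC and 10.8% for NAC. The share was 15.4% for genipin+NAC against genipin, 6.8% for genipin+NAC against NAC and 12.9% for the interaction. At a mean of 5 CPM, Slamf6 was not tested, leaving 1 lower for genipin+NAC against vehicle, 1 against genipin and 0 against NAC. The 1 receptor lower for genipin+NAC against NAC, Slamf6, became 2 without normalization factors, 0 with only the groups compared, 0 at adjusted p under 0.01, and 0 to 1 with single libraries left out. Without normalization factors the median over all genes moved to 0.11 for NAC against vehicle and -0.11 for the interaction. That setting gave -0.053 for Tnfrsf4 and -0.0447 for Tnfrsf18 (genipin+NAC against NAC), 0.0373 for Traf1 (NAC against vehicle), and called Tnfrsf1b for NAC against vehicle at 0.13. Effective-length offsets gave -0.0237 for Tnfrsf1b (NAC against vehicle), and the 5 CPM filter gave -0.00309 for Cd28 (genipin against vehicle). With single libraries left out, Tnfrsf4 (genipin+NAC against NAC) ranged from -0.0342 to 0.0906, Tnfrsf18 from -0.0108 to 0.0901, Tnfrsf1b (NAC against vehicle) from -0.00794 to 0.0272, and Cd28 (genipin against vehicle) from -0.0101 to 0.0296. The cause of these shifts was not tested.

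Same-numbered libraries correlated between -0.105 and 0.0819 over 18 pairs after group means were removed, and 5 of 12 correlated best with their own number, so the numbers were not taken as pairs. With CPM in place of TPM for the levels, overlap between groups differed in 6 of 50 pairs of groups: genipin and vehicle for Cd28, NAC and vehicle for Tnfrsf1b, genipin+NAC and genipin for Cd28, and genipin+NAC and NAC for Tnfrsf18, Tnfrsf1a and Cd226. With the replicate number as a block, genipin against vehicle was -1.50 for Tnfrsf9, and no receptor gained or lost a call. Slamf6, at 46 to 219 counts per library, is the receptor with the fewest reads.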
